A study of Mus musculus with 4 samples.

Results

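Laminin chains and the proteins that link laminin to the rest of the basement membrane were followed by single-cell RNA-seq in the developing mouse mammary gland, and the description covers 10 genes chosen by name: the laminin chains Lama1, Lama4, Lama5, Lamb1, Lamb2 and Lamc1, the nidogens Nid1 and Nid2, and the heparan sulfate proteoglycans perlecan (Hspg2) and agrin (Agrn). All 10 were listed at each of the 4 stages, among 30406 genes common to the 4 tables. Mammary tissue came from WT C57B6 females at embryonic days E13.5, E14.5 and E15.5 and at birth (P0), with no genetic change or treatment in any group. Rudiments of several embryos were pooled at each stage, and cells positive or negative for the epithelial surface protein EpCAM were sorted after removal of CD45, CD31 and Ter119 positive cells, so that endothelial cells, which also make basement membrane, were sorted against, while the mural cells of vessels were not. Each stage was 1 library from its own dissection, and at P0 the enzymes of the digestion were used at other concentrations and red cells were lysed, so that stage, library and digestion cannot be told apart. The header of the E15.5 count table names another version of the counting software than the others, and its gene list differs. Levels particular to E15.5 therefore cannot be told apart from that difference either. No result below has a replicate or a test.

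The basement membrane is the thin sheet of matrix on which every epithelium rests. Laminins are heterotrimers of an alpha, a beta and a gamma chain that polymerise at the cell surface, where the alpha chain binds integrins and dystroglycan. Nidogens and perlecan connect the laminin network to the collagen IV network, and agrin ties the laminin gamma chain to cell surface receptors. In the mammary gland the sheet separates the epithelial bud and ducts from the mesenchyme, and contact with laminin is known to be needed for polarity and for milk protein expression in mature epithelium.

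Cells with at least 5000 UMIs (unique molecular identifiers, each counting 1 captured transcript end) and at most 6% mitochondrial UMIs were kept, which left, in stage order from E13.5 to P0, 235 of 981, 76 of 807, 816 of 2642 and 503 of 1466 barcodes. A cell was put in the epithelial class when its summed UMIs of Epcam, Krt8, Krt18, Krt5 and Krt14 exceeded those of Col1a1, Col1a2 and Col3a1, and in the mesenchymal class in the opposite case. The epithelial class held 98, 45, 532 and 230 cells and the mesenchymal class 135, 31, 283 and 273 cells in the same order, with 3 cells in neither class. The classes held between 838030 UMIs (E14.5 mesenchymal) and 14293755 UMIs (E15.5 epithelial), and the median depth of a cell lay between 8743 and 26725 UMIs. Independent markers went with the classes. Of 6 epithelial reference genes (Cdh1, Cldn7, Dsp, Perp, Esrp1, Grhl2) and 6 mesenchymal ones (Pdgfra, Dcn, Lum, Col6a1, Twist1, Prrx1), every gene was at least 2-fold higher in the class of its name at all 4 stages. The other class still held some of their UMIs. At P0 the epithelial class showed the mesenchymal reference genes at 0.00207 (Prrx1) to 0.00969 (Col6a1) times their mesenchymal level, and the mesenchymal class showed the epithelial ones at 0.0266 (Cdh1) to 0.0535 (Grhl2) times their epithelial level. The embryonic epithelial class was mixed, with UMIs of at least 3 of 7 mammary bud markers in 45 of 98, 38 of 45 and 294 of 532 cells from E13.5 to E15.5, and with at least 3 of 8 epidermis and periderm markers in 27, 9 and 160 cells. Libraries shared at most 1 barcode in any pair, and none among the kept cells.

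A level is given as CPM, the UMIs of the gene per 1000000 UMIs of the class, with an exact 95% Poisson interval. A ratio of levels has an exact conditional binomial 95% interval. It was called when it reached 2-fold, its interval lay on a single side of 1, and the gene had at least 20 UMIs in the groups compared. These intervals cover counting error within a library only. Since UMIs count transcript ends, no length scaling applies, but levels of different genes also depend on how well each end was captured.

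**Figure D1:**
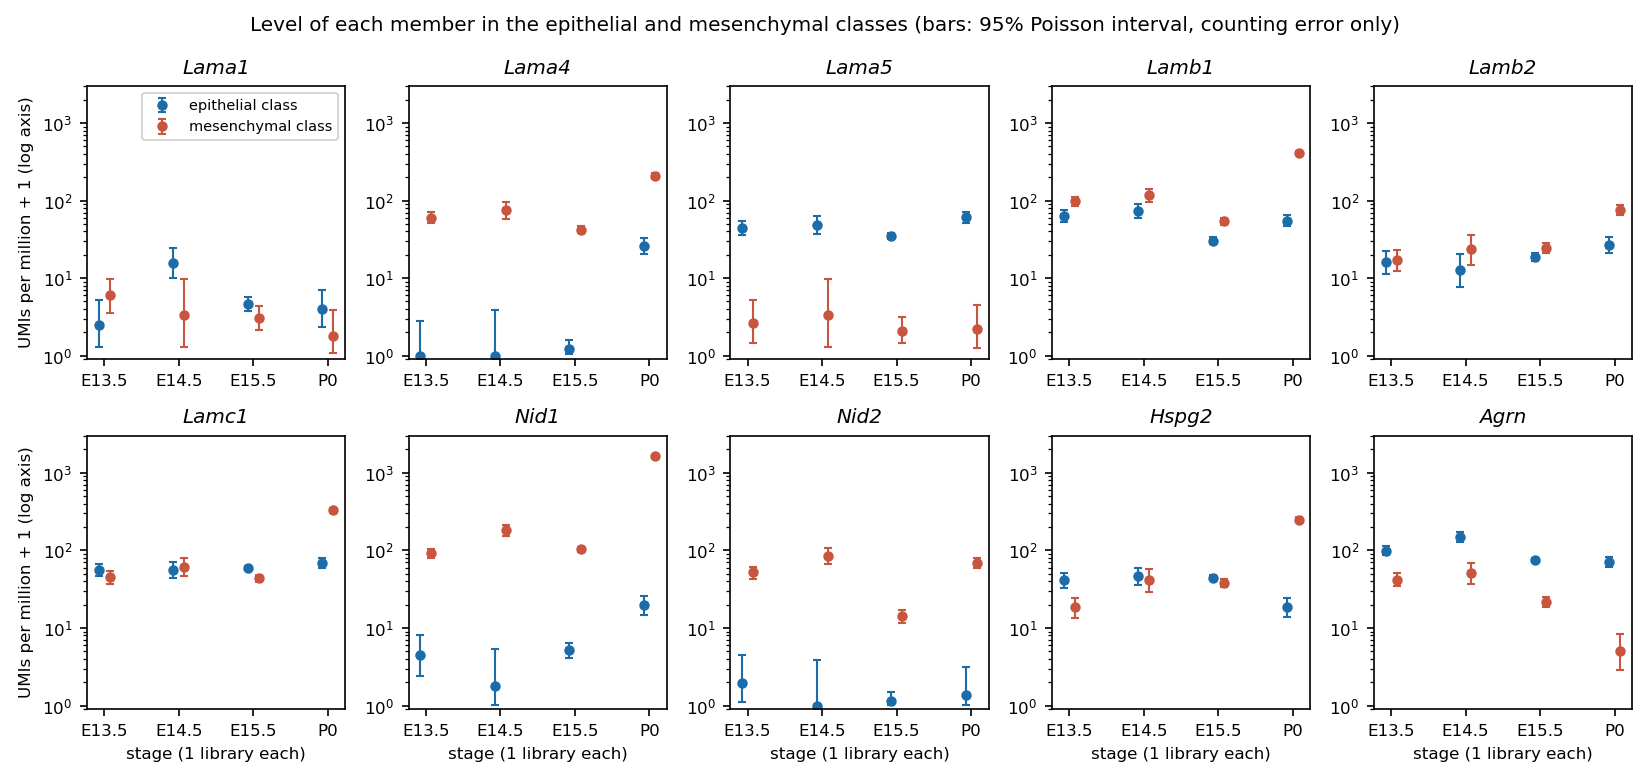
Level of each of the 10 genes (UMIs per 1000000 plus 1, log axis) by stage in the epithelial class (blue) and the mesenchymal class (red), with exact 95% Poisson intervals for counting error as bars. Lama5 and Agrn stayed higher in blue at all stages, Lama4, Nid1 and Nid2 higher in red, and the red points of Lamb1, Lamc1, Nid1 and Hspg2 stood highest at P0.

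The 10 genes fell into 3 patterns. Lama5 and Agrn were called higher in the epithelial class at every stage, and Lama4, Nid1 and Nid2 in the mesenchymal class at every stage. Lamb1, Lamb2, Lamc1 and Hspg2 were shared by the classes in the embryo, mostly within 2-fold, and were called mesenchymal at P0. Lama1 was low throughout. At E13.5, 3 genes were called epithelial (Lama5, Hspg2, Agrn) and 3 mesenchymal of 9 tested, where over all genes tested 9.81% and 20.7% were called in these directions. At E14.5 the counts were again 3 (Lama1, Lama5, Agrn) and 3 of 10, beside 13.4% and 16.8% of all genes, and at E15.5 they were 2 and 3 of 10, beside 16.2% and 22.3%. At P0 all 9 tested genes were called, 2 epithelial and 7 mesenchymal, beside 23.8% and 18.4% of all genes. The median log2 ratio of epithelial to mesenchymal level over the 10 genes was -0.36, -0.42 and -0.08 at the embryonic stages and -2.59 at P0. Over all genes tested it was -0.18, 0.02, -0.10 and 0.30.

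**Figure D2:**
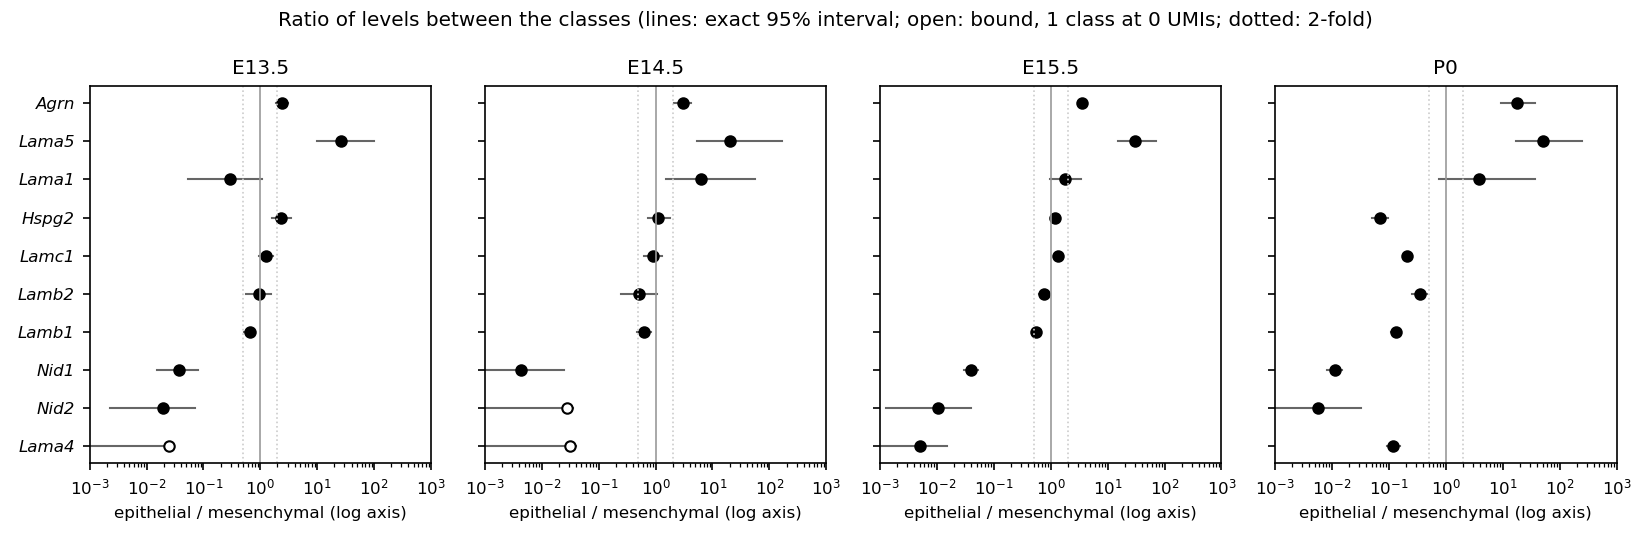
Ratio of epithelial to mesenchymal level for each gene at each stage on a log axis, with exact 95% intervals as lines, the 2-fold limits dotted and open symbols for bounds where a class had 0 UMIs. Lamc1, Lamb2 and Lamb1 sat within the 2-fold limits in the embryo, as did Hspg2 after E13.5 (2.30), and all 4 lay below 0.5 at P0, where the ratio of Hspg2 was 0.0706.

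Gene positions are those of GENCODE M21 on GRCm38, by gene span. Promoter windows, from 250 bases before to 50 after the RefSeq start on GRCm38.p6, were available for 6 of the 10 genes. They were not available for Lama1, Lama4, Lamc1 and Nid2. The windows of Lama5 and Agrn, the genes called epithelial at every stage, and of Nid1 and Hspg2, the genes with the largest mesenchymal difference between E13.5 and P0, are printed 5′ to 3′ on the strand of the gene. A further RefSeq start of Agrn, 11229 bases into the gene, had a window of 61.3% G and C with 2 GC boxes, which is not printed. Capitals mark the GC box letters GGGCGG or their reverse complement CCGCCC, and the letters CCAAT or ATTGG. Overlapping matches were counted singly.

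Lama5 (chr2:180225810-180226109, minus strand): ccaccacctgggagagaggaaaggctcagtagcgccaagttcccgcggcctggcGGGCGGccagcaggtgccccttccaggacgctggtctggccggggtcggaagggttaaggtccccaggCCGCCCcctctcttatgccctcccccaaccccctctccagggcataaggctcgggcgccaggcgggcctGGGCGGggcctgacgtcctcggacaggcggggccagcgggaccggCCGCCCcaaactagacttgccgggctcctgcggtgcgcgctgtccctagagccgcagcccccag
Agrn (chr4:156197439-156197738, minus strand): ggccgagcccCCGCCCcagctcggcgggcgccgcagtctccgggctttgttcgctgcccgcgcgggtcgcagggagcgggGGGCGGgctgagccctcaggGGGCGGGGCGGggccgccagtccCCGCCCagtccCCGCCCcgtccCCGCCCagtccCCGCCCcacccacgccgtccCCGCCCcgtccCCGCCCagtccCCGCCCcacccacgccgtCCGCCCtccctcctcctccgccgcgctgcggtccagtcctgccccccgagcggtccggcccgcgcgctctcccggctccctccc
Nid1 (chr13:13437352-13437651, plus strand): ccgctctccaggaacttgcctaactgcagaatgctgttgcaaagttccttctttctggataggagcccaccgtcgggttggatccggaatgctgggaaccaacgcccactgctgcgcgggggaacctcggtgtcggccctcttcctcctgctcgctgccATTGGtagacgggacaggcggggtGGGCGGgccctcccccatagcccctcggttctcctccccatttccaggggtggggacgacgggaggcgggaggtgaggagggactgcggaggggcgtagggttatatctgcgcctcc
Hspg2 (chr4:137468553-137468852, plus strand): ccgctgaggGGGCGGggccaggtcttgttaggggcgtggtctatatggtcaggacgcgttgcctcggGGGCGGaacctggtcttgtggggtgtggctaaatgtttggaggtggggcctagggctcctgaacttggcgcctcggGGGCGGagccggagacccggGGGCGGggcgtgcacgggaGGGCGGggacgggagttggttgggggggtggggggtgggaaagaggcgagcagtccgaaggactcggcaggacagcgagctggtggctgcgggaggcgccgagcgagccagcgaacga

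All 4 printed windows were rich in G and C, with 72.7% for Lama5, 83.3% for Agrn, 64.7% for Nid1 and 70.3% for Hspg2, against a median of 52.7% over 32851 promoter windows. GC boxes numbered 4, 12, 1 and 5 in the same order. A GC box was present in 35.7% of all windows, on either strand. A CCAAT match occurred in the Nid1 window alone of the 4 (37.4% of all windows), and the TATA letters TATAAA, present in 13.6% of all windows, in none. The pair Lama5 and Agrn and the pair Nid1 and Hspg2 thus had the GC box in common, and these letters did not separate the pairs. The windows of Lamb1 and Lamb2 are not printed. That of Lamb1 had 63.7% G and C, 2 GC boxes and 1 CCAAT match. That of Lamb2 had 44% G and C, 0 GC boxes and 0 CCAAT matches, so the GC box was not common to all available windows.

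Lama5 encodes the laminin alpha chain of most adult epithelial basement membranes and lies at chr2:180176373-180225859 on the minus strand, with up to 79 exons. Its epithelial level was 43.6, 47.9, 33.8 and 60.1 CPM from E13.5 to P0. In the mesenchymal class it was 1.66, 2.39, 1.10 and 1.20 CPM, from 2 to 8 UMIs at each stage. The epithelial level was thus higher by 26.2-fold (9.9 to 98.4), 20.1-fold (5.32 to 170), 30.7-fold (15.4 to 71.4) and 50.2-fold (16.9 to 246), with intervals that overlapped at all stages. At E15.5, where both classes had similar depth (medians of 24696 and 24376 UMIs), 54.1% of epithelial cells (49.8 to 58.4) and 2.47% of mesenchymal cells (1.00 to 5.03) had a Lama5 UMI. After thinning to 5000 UMIs these shares were 12.8% and 0.353%. The mesenchymal trace, 0.0326 times the epithelial level, lay within the range of the epithelial reference genes at that stage, 0.0196 (Cldn7) to 0.0771 (Grhl2). Within the epithelial class, P0 was above E13.5 by 1.38-fold (1.06 to 1.81) and above E15.5 by 1.78-fold (1.47 to 2.13), both short of a call. Over the 8 groups of stage and class, the genes whose log2(CPM + 10) followed Lama5 most closely were Mapk13 (r = 0.995), Itgb4 (0.991), which encodes an integrin chain of hemidesmosomes, and Klc3 (0.985), out of 5221 genes compared. These correlations describe 8 points that share 4 libraries.

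Agrn (chr4:156165290-156197488, minus strand, up to 38 exons) had the highest epithelial level of the 10 genes at every stage, though at P0 within the interval of Lamc1. It was 98.5, 149, 74.6 and 70.4 CPM in stage order. Mesenchymal cells also held it in the embryo, at 41.1, 50.1 and 20.7 CPM, but only at 3.99 CPM (10 UMIs) at P0. The epithelial excess therefore went from 2.40-fold (1.87 to 3.08), 2.98-fold (2.12 to 4.26) and 3.61-fold (3.04 to 4.31) before birth to 17.6-fold (9.38 to 37.4) at P0. The larger change was in the mesenchyme. There Agrn was 10.3-fold lower (5.38 to 22.2) at P0 than at E13.5, whereas in the epithelial class the difference was 1.40-fold (1.14 to 1.72). The E13.5 epithelial class was mixed. With only its cells that had at least 3 bud markers, the epithelial log2 ratio of P0 over E13.5 was -0.84. The share of mesenchymal cells with an Agrn UMI after thinning was 16.3%, 16.1%, 9.19% and 2.20% in stage order. At P0 its mesenchymal level was 0.0567 times the epithelial one, just above the 0.0535 of Grhl2.

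Lama1, the alpha chain of the earliest embryonic basement membranes (chr17:67697259-67822647, plus strand, up to 63 exons), was low in both classes. Epithelial levels were 1.47, 14.9, 3.64 and 3.06 CPM from E13.5 to P0, from 3, 19, 52 and 8 UMIs. Mesenchymal levels were 4.98, 2.39, 2.07 and 0.798 CPM. A call was made at E14.5 only, where the epithelial level was 6.25-fold higher (1.51 to 55.4). Its 19 UMIs came from 9 of 45 epithelial cells, and the 2 mesenchymal UMIs from 1 of 31 cells. When cells were thinned to 5000 UMIs, the epithelial UMIs of E14.5 came from 2 cells and the mesenchymal class had none. At E13.5 the ratio lay on the other side, 0.295, with an interval of 0.0534 to 1.09 that held 1. Agap1 (r = 0.938), Kdm5c (0.880) and Zmym2 (0.877) had the most similar patterns over the 8 groups, with a highest level of 59.7 to 84.8 CPM. Lama1 was at 4.98 CPM or less in every group but the E14.5 epithelium, so these correlations rest largely on that group.

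Lama4, an alpha chain known from mesenchymal cells, vessels and fat (chr10:38965515-39110188, plus strand, up to 38 exons), was the mirror image of Lama5 in the embryo. Its mesenchymal level was 59.0, 74.0, 41.3 and 207 CPM from E13.5 to P0. In the epithelial class, 0, 0 and 3 UMIs were counted before birth, the last of which gave 0.210 CPM. With 3 counts taken for the epithelial class, the mesenchymal level was 40.1-fold higher at E13.5 (exact lower limit 32.2) and 31.4-fold higher at E14.5 (exact lower limit 24.8). At E15.5 it was 197-fold higher (66.7 to 960) by the counts themselves. At P0 the epithelial class had 65 UMIs in 37 of 230 cells, a level of 24.9 CPM (P0 over E15.5, 118-fold, 38.8 to 589), and the mesenchymal excess was 8.32-fold (6.42 to 10.9). The epithelial level was 0.120 times the mesenchymal one, more than 10 times the highest of the mesenchymal reference genes at P0 (Col6a1, 0.00969). These UMIs were unevenly spread among epithelial cells, as described with the basal and luminal sets. The patterns closest to Lama4 were those of Blvrb (r = 0.981), Angptl4 (0.980) and Dlk1 (0.975), the last of which marks preadipocytes.

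Lamb1 encodes the beta chain that pairs with most of these alpha chains (chr12:31265234-31329644, plus strand, up to 34 exons). Epithelial cells held it at 62.7, 72.3, 29.5 and 53.9 CPM from E13.5 to P0. Mesenchymal cells held it at 97.2, 116, 52.8 and 408 CPM. The mesenchymal level was higher at each stage, by 1.55-fold (1.24 to 1.94), 1.60-fold (1.19 to 2.15) and 1.79-fold (1.55 to 2.06) before birth, all under the 2-fold limit, and by 7.56-fold (6.34 to 9.09) at P0. Both classes were lowest at E15.5.

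Lamb2, an alternative beta chain (chr9:108479736-108490530, plus strand, up to 33 exons), was lower than Lamb1 in each class and stage. Its epithelial levels were 15.2, 11.8, 17.9 and 26.0 CPM and its mesenchymal levels 16.2, 22.7, 23.4 and 75.0 CPM. The classes were not apart at E13.5 (ratio 0.938, 0.566 to 1.54) or at E14.5 (0.520, 0.246 to 1.08), and the mesenchymal level was higher by 1.31-fold (1.07 to 1.59) at E15.5 and by 2.88-fold (2.17 to 3.86) at P0.

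Lamc1, the gamma chain of most laminins (chr1:153218922-153332786, minus strand, up to 28 exons), was the most evenly shared gene before birth. Epithelial levels were 55.3, 55, 58.4 and 68.1 CPM in stage order, and so stayed close to one another. Mesenchymal levels were 44.0, 60.9 and 42.8 CPM in the embryo and 326 CPM at P0. The ratio of epithelial to mesenchymal level was 1.26 (0.956 to 1.65), 0.903 (0.621 to 1.32) and 1.36 (1.20 to 1.56), then 0.209 (0.176 to 0.246). At E15.5 the interval was thus on the epithelial side, and at P0 on the mesenchymal side.

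Nid1 (chr13:13437551-13512269, plus strand, up to 20 exons) reached the highest level of the 10 genes. Mesenchymal levels were 90.9, 181, 103 and 1667 CPM from E13.5 to P0. Epithelial levels were 3.43, 0.785, 4.13 and 18.7 CPM. At P0, 96.0% of mesenchymal cells (92.9 to 98.0) and 15.2% of epithelial cells (10.8 to 20.5) had a Nid1 UMI, at median depths of 8743 and 9973 UMIs, and 94.9% and 7.83% after thinning. The mesenchymal excess was 26.5-fold (12.7 to 66.7), 231-fold (40.8 to 9181), 25.0-fold (19.1 to 33.1) and 89.0-fold (67.2 to 120). The epithelial level at P0 was called 5.47-fold above E13.5 (2.46 to 14.3), yet it was 0.0112 times the mesenchymal level, close to the 0.00969 of Col6a1, and what part of it is RNA carried over between cells was not tested.

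Nid2, the second nidogen (chr14:19751265-19811787, plus strand, up to 21 exons, with Rtraf on the opposite strand over its last 1 kb), was a mesenchymal gene with a dip. Its mesenchymal level was 51.1, 84.7, 13.2 and 67.8 CPM in stage order. The low E15.5 level cannot be told apart from the other software version named for that count table. The epithelial class held 2, 0, 2 and 1 UMIs. Mesenchymal cells with at least 2 pericyte markers (12, 8, 13 and 17 cells) had Nid2 at 116, 158, 44.3 and 71.7 CPM, and without them the levels were 43.3, 57.4, 11.6 and 67.5 CPM, lowest at E15.5 as before. In the whole class, the level at E15.5 was 3.86-fold below E13.5 (2.93 to 5.10), and P0 was 5.13-fold above E15.5 (3.97 to 6.66). Of all nidogen UMIs in mesenchymal cells, Nid2 made up 36.0% (30.9 to 41.3), 31.8% (25.8 to 38.4), 11.4% (9.31 to 13.7) and 3.91% (3.35 to 4.53), so its share went down at P0 although its level did not.

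Hspg2, perlecan (chr4:137468769-137570630, plus strand, up to 97 exons), changed sides. Epithelial levels were 40.2, 45.6 and 43.6 CPM in the embryo and 17.6 at P0. Mesenchymal levels were 17.4, 40.6, 36.9 and 249 CPM from E13.5 to P0. It was called epithelial at E13.5 (2.30-fold, 1.57 to 3.43), lay within 2-fold in the later embryo (1.12-fold, 0.723 to 1.77, then 1.18-fold, 1.02 to 1.37), and was 14.2-fold higher in the mesenchyme (10.5 to 19.6) at P0. Of the 10 genes, it alone had intervals on opposite sides of 1 for P0 over E13.5 in the 2 classes, 2.28-fold lower in the epithelium (1.57 to 3.35) and 14.3-fold higher in the mesenchyme (10.5 to 20).

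Between E13.5 and P0 the mesenchymal class gained most of these transcripts. Lama4, Lamb1, Lamb2, Lamc1, Nid1 and Hspg2, 6 of 8 tested genes, were called higher at P0 and Agrn was called lower, where 13.8% of all genes tested were called higher and 34.8% lower. The median log2 ratio was 1.94 over the 10 genes and -0.59 over all genes. The folds were 3.51 for Lama4 (2.91 to 4.26), 4.20 for Lamb1 (3.64 to 4.86), 4.63 for Lamb2 (3.27 to 6.72), 7.41 for Lamc1 (6.05 to 9.16), 14.3 for Hspg2 and 18.3 for Nid1 (16.0 to 21.1). Nid2 differed by 1.33-fold (1.05 to 1.69). From E13.5 to E15.5 the same class was flatter, with Lamc1 at 0.973 (0.778 to 1.23) and Nid1 at 1.13 (0.973 to 1.32) times the earlier level, Lamb1 at 0.543 (0.460 to 0.642), and Hspg2 already 2.12-fold higher (1.52 to 3.01). Other measures moved with P0 as well. The median cell was shallower, the summed level of the 6 mesenchymal reference genes was 7290 CPM against 2169 to 3474 in the embryo, and the mesenchymal class held 10369 CPM of 4 hemoglobin genes, against 0.964 CPM or less before. All 5 immune markers had UMIs at P0 (112 CPM in sum, against at most 1.19), and the sum of 5 pericyte markers was 85.3 CPM against 22.9 to 53.7, with the pericyte gene Higd1b at 0 at every stage. The endothelial markers Cdh5, Emcn and Tie1 were at 0 in the P0 mesenchymal class, and 3 of the 6 endothelial markers had UMIs, 34.7 CPM in sum. Without the 17 P0 cells that had 2 or more pericyte markers, Nid1 stood at 1654 CPM, Lamc1 at 332 and Hspg2 at 254. Without 4 cells in which hemoglobin made up at least 1% of the UMIs, the calls were the same in number.

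The epithelial class changed less over the same interval. Lama4 (16.9-fold with 3 counts taken for E13.5, exact lower limit 13.4) and Nid1 were called higher at P0 and Hspg2 lower, 2 and 1 of 8 tested, where 16.7% and 19.6% of all genes were called. The median log2 ratio was 0.38 over the 10 genes and -0.16 over all genes. The E13.5 class also held cells without bud markers. With only its cells that had at least 3 bud markers, the log2 ratio of P0 over E13.5 was -0.84 for Agrn and -0.09 for Lamc1. The bound for Lama4 was then 3.09. In the whole class, Lamb1 was 0.860 times its E13.5 level (0.672 to 1.10) and Lamc1 1.23 times (0.966 to 1.57), both not apart. The ratio between the classes thus moved towards the mesenchyme from E15.5 to P0 by 16.7-fold for Hspg2 (12.0 to 23.3), 6.53-fold for Lamc1 (5.31 to 8.04), 4.23-fold for Lamb1 (3.38 to 5.30), 3.56-fold for Nid1 (2.42 to 5.25) and 2.20-fold for Lamb2 (1.57 to 3.09). For Agrn the same factor was 0.205 (0.106 to 0.395) and for Lama4 0.0423 (0.0132 to 0.136), both moves towards the epithelium. The factor of Lama4 rests on 3 epithelial UMIs at E15.5. For Lama5 it was 0.611 (0.160 to 2.33), for Lama1 0.459 (0.0879 to 2.4) and for Nid2 1.88 (0.168 to 21), with intervals that held 1. These intervals are Wald approximations from the UMI counts.

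In the embryo the epithelial class held skin cells, so the genes were also read in cells with bud markers. At E13.5, the 45 cells with at least 3 bud markers had 126 CPM of Agrn (105 to 150), against 70.8 (55.4 to 89.1) in the other 53. Lamc1 stood at 72.2 (56.7 to 90.7) against 38.3 (27.3 to 52.4). Lama5 at 50.8 (37.9 to 66.6) against 36.4 (25.6 to 50.1) and Hspg2 at 47.8 (35.4 to 63.2) against 32.4 (22.3 to 45.6) had overlapping intervals. At E15.5 the 294 bud-marker cells were higher for all 4, with Agrn at 90.7 against 50 CPM, Lamc1 at 69.3 against 41.8, Hspg2 at 51.0 against 32.3 and Lama5 at 39.9 against 24.5. Lamb2 was 18.4 against 17.1 CPM, within the intervals. None of the 10 genes was used to choose these cells. The bud markers were Ndnf, Pthlh, Tbx3, Msx1, Sostdc1, Lmo1 and Wnt10b. Ndnf, Pthlh and Lmo1 are also in the basal list used at E15.5 below. The authors report Pthlh, Wnt10b, Sostdc1 and Msx1 as enriched in basal-like cells of that stage. At E15.5 the cells without bud markers may thus include luminal-like mammary cells, and bud against skin cannot be told apart from basal against luminal.

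Laminin alpha chains were then compared as shares of all alpha chain UMIs, with Lama2, a chain of muscle and stromal laminins, and Lama3, the chain of the hemidesmosome laminin. In the epithelium Lama3 and Lama5 led before birth, and Lama5 followed by Lama4 at P0. Lama3 made up 52.3% (45.0 to 59.6), 46.1% (38.1 to 54.3), 74.5% (72.7 to 76.3) and 17% (12.8 to 21.9) in stage order. Lama5 made up 46.1% (38.9 to 53.4), 39.6% (31.8 to 47.8), 21.3% (19.6 to 23.0) and 55.5% (49.5 to 61.4). The low Lama5 share at E15.5 went with a Lama3 level of 118 CPM, against 49.5, 55.8 and 18.4 CPM at the other stages. Lama4 held 23.0% (18.2 to 28.3) of the epithelial alpha UMIs at P0, and Lama1 12.3% (7.59 to 18.6) at E14.5.

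In the mesenchyme Lama4 led before birth and Lama2 at P0. Lama4 made up 81.1% (74.5 to 86.6), 80.5% (69.9 to 88.7), 72.6% (68.1 to 76.9) and 42.5% (39.7 to 45.3). Lama2 made up 8% (4.44 to 13.1), 14.3% (7.35 to 24.1), 13.3% (10.2 to 17) and 57.0% (54.2 to 59.8). Lama4 itself was at its highest level at P0, and Lama2 went from 7.58 CPM at E15.5 to 278 CPM. Of the beta chains, Lamb1 led in both classes, with 52.6% to 78.6% in the epithelium and 68.6% to 85.7% in the mesenchyme.

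**Figure D3:**
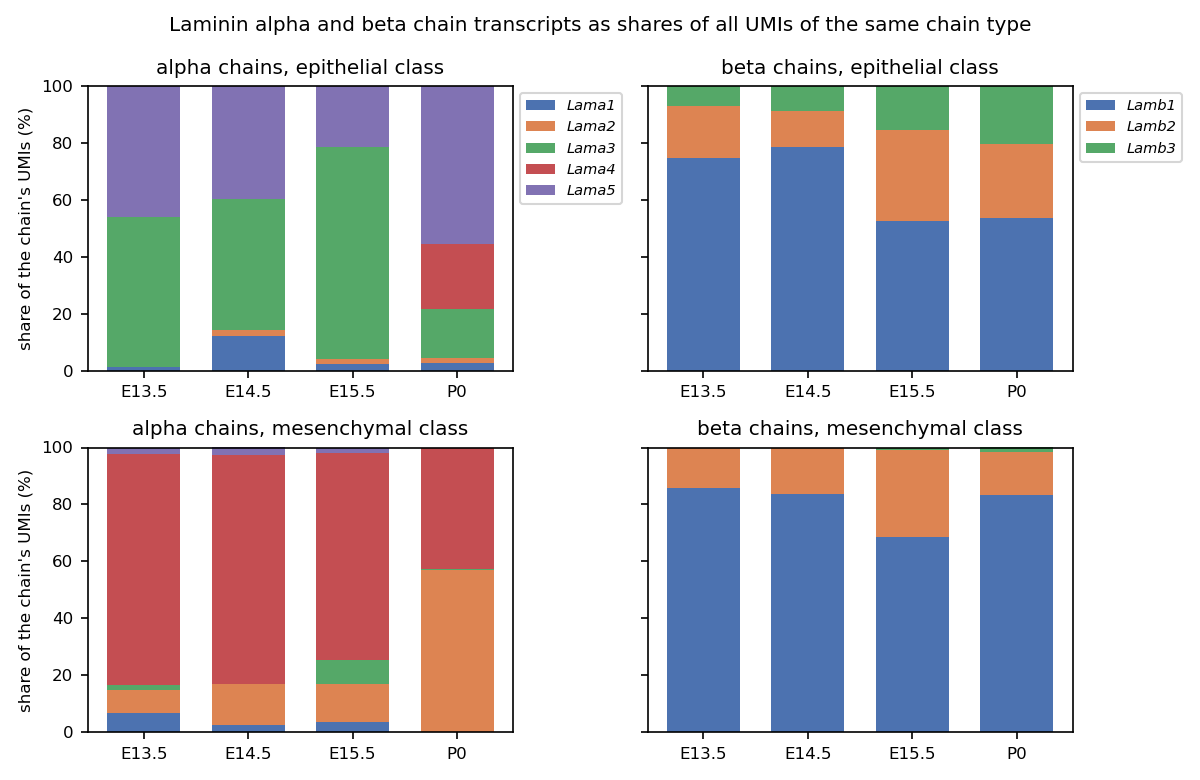
Stacked shares (percent) of each laminin alpha and beta chain among all UMIs of its chain type, by stage, in the epithelial class (upper row) and the mesenchymal class (lower row), without error bars. Lama3 and Lama5 fill most of the epithelial alpha bars before birth, and Lama4 fills the mesenchymal ones before birth, with Lama2 at 57.0% at P0.

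Basal and luminal sets of epithelial cells were gated on short marker lists that contain none of the 10 genes. Each marker was scaled to its mean in the class, and a cell joined the list with the highest average when this was at least 1.5 times the next. At P0, 31 cells joined the basal list (Acta2, Myh11, Cnn1, Mylk) and 180 the luminal list (Aldh1a3, Cited1, Prlr, Lypd3), with median depths of 10079 and 9973 UMIs. The basal list holds contractile genes, and mural cells of vessels were not sorted against. In the whole P0 epithelial class, Krt5 had UMIs in 11 of 230 cells and Krt14 in 165. In that class, 1 cell had at least 2 of 5 pericyte markers. These markers were not counted by set. Lamb1, Lamc1, Lama4 and Hspg2 were called higher in the basal set, and no other gene of the 10 was called. A share of calls over all genes is not given for the gated sets, so these calls cannot be set against one. Lamb1 was 191 CPM (146 to 244) in basal and 34.3 (26.8 to 43.3) in luminal cells, a 5.55-fold difference (3.88 to 7.91), and Lamc1 was 187 against 50.8 CPM, 3.69-fold (2.65 to 5.11). Lama4 was 92.2 CPM (62.2 to 132) in basal cells, where 45.2% had a UMI, and 16.0 CPM (11 to 22.4) in luminal cells, where 11.7% had one, 5.78-fold (3.40 to 9.77). The 6 mesenchymal reference genes summed to 24.6 CPM in the basal and 32.9 CPM in the luminal set. What part of the Lama4 UMIs came from other cells was not tested. Hspg2 was 2.82-fold higher in basal cells (1.30 to 5.76), but with a margin of 3 times its ratio was 2.41 (0.997 to 5.28) and no longer called. Lama1 had 5 basal and 3 luminal UMIs, under the minimum of 20 for a call. Lama5 showed no basal excess, with 46.1 CPM (25.8 to 76.0) in basal and 64.8 (54.3 to 76.8) in luminal cells, a ratio of 0.711 (0.387 to 1.22). Agrn stood at 104 against 63.4 CPM, a ratio of 1.65 (1.10 to 2.42) that was under the 2-fold limit, and of 1.56 (0.996 to 2.36) with the wider margin. Nid1 was not apart, 18.4 (6.77 to 40.1) and 20.3 CPM (14.6 to 27.5).

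At E15.5, 317 cells joined the basal list (Cxcl14, Pthlh, Ndnf, Lmo1) and 156 the luminal list (Anxa1, Ly6d, Lgals3, Plet1), with 59 in neither. The authors also describe hybrid and proliferative epithelial cells at E15.5. These had no list here, so such cells could join either set. Epidermis and periderm markers moved with this split, at 196 CPM in the basal and 3781 CPM in the luminal set, all 8 markers summed. These were Krt1, Krt10, Krtdap, Sbsn, Lor, Krt4, Krt6a and Gabrp. The authors report Krtdap in luminal-like mammary cells at E15.5 as well. The basal set was higher for Agrn (93.2 against 39.8 CPM, 2.34-fold, 1.99 to 2.77), Hspg2 (54.6 against 23.5, 2.32-fold, 1.88 to 2.89), Lamc1 (68.3 against 33.2, 2.06-fold, 1.72 to 2.48), Lama5 (42.2 against 22.0, 1.92-fold, 1.53 to 2.43) and Lamb1 (34.8 against 19.6, 1.78-fold, 1.40 to 2.28), the last 2 of which were under the 2-fold limit. Lama1 was 5.26 against 1.10 CPM (4.79-fold, with a lower limit of 1.90). Cells with at least 3 epidermis and periderm markers were then left out, a choice made after seeing the data. Whether the cells left out were skin or luminal-like mammary cells was not tested. The gates were drawn again on the other cells, so that a cell could change set. The new sets held 213 basal and 109 luminal cells, and the folds were smaller. They were 1.34 for Agrn (1.13 to 1.59), 1.56 for Hspg2 (1.23 to 1.98), 1.47 for Lamc1 (1.20 to 1.81), 1.86 for Lama5 (1.40 to 2.49) and 1.58 for Lamb1 (1.18 to 2.13), and for Lama1 the ratio of 1.98 had an interval of 0.882 to 5.

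In the mesenchyme, cells were gated by sub-epithelial markers (Esr1, Lef1, Vcan, Crabp1) or dermal markers (Plagl1, Cdkn1c). The authors chose these markers among E15.5 cells and showed their position in E15.5 tissue. At E13.5 the set names are carried over from that stage. The authors also describe proliferative mesenchymal cells at E13.5 and E15.5, which had no list here and could join either set. Cdkn1c encodes an inhibitor of the cell cycle, and cycling was not compared between the sets. Nid2 differed most between the sets. At E13.5 it was 13.1 CPM (6.54 to 23.4) in 50 sub-epithelial and 63.3 (50.1 to 79.0) in 67 dermal cells, and at E15.5 it was 2.61 (1.39 to 4.46) in 179 and 44.5 (35.3 to 55.4) in 83 cells. The dermal excess was 4.84-fold (2.56 to 10.1) and 17.1-fold (9.45 to 33.5). The dermal over sub-epithelial ratio of Lama4 was 1.83 (1.23 to 2.78) at E13.5, not called, and 2.62 (2.06 to 3.34) at E15.5, called, and that of Lamb1 was 1.63 (1.20 to 2.25), not called, and 2.29 (1.86 to 2.83), called. Nid1 was not apart at E13.5 (1.11, 0.818 to 1.52), and its ratio of 1.99 at E15.5 (1.70 to 2.32) fell just short of a call. Agrn was not apart at either stage, with dermal over sub-epithelial ratios of 0.844 (0.539 to 1.33) and 1.05 (0.709 to 1.52), and those of Hspg2 were 0.512 (0.244 to 1.05) and 1.33 (1.00 to 1.75), both not called. Other markers moved with the split at E15.5, where the 6 mesenchymal reference genes summed to 5575 CPM in the dermal and 2554 CPM in the sub-epithelial set and the 8 epidermis and periderm markers to 203 and 46.7 CPM. At E13.5 the same sums were 2148 and 2286 CPM, and 46.3 and 46.4 CPM. Their part in the folds was not tested. The mix of the sets also differed between the libraries, with 50 of 135 mesenchymal cells in the sub-epithelial set at E13.5 and 179 of 283 at E15.5, beside the lower Nid2 level of the whole class at E15.5.

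At P0 the mesenchymal cells were gated into a Pi16 set (93 cells), a Col15a1 set (84 cells) and an Eln set (54 cells), named for a marker of each list. All 3 sets had high Nid1, with 2133 CPM (2043 to 2226) in the Pi16, 1479 (1392 to 1570) in the Col15a1 and 1257 (1154 to 1367) in the Eln set. Lama4 was highest in the Col15a1 set, 313 CPM (274 to 356) against 175 (150 to 203) and 140 (107 to 180), and Nid2 was 109 (86.4 to 136) there against 39.6 (28.2 to 54.1) in the Pi16 set and 85.0 (59.9 to 117) in the Eln set. Lamb2 ran the other way, 99.5 CPM (80.8 to 121) in the Pi16 set against 53.1 (37.8 to 72.6) in the Col15a1 set. Hspg2 was not apart between them, at 270 (239 to 305), 241 (207 to 279) and 246 CPM (202 to 297). Each set thus stood above the whole embryonic mesenchymal class for Nid1, Lamb1, Lamc1 and Hspg2. The Eln set held most of the hemoglobin, 24460 CPM against 24.4 and 46.3, and its part in these levels was not tested beyond leaving the 4 cells out.

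**Figure D4:**
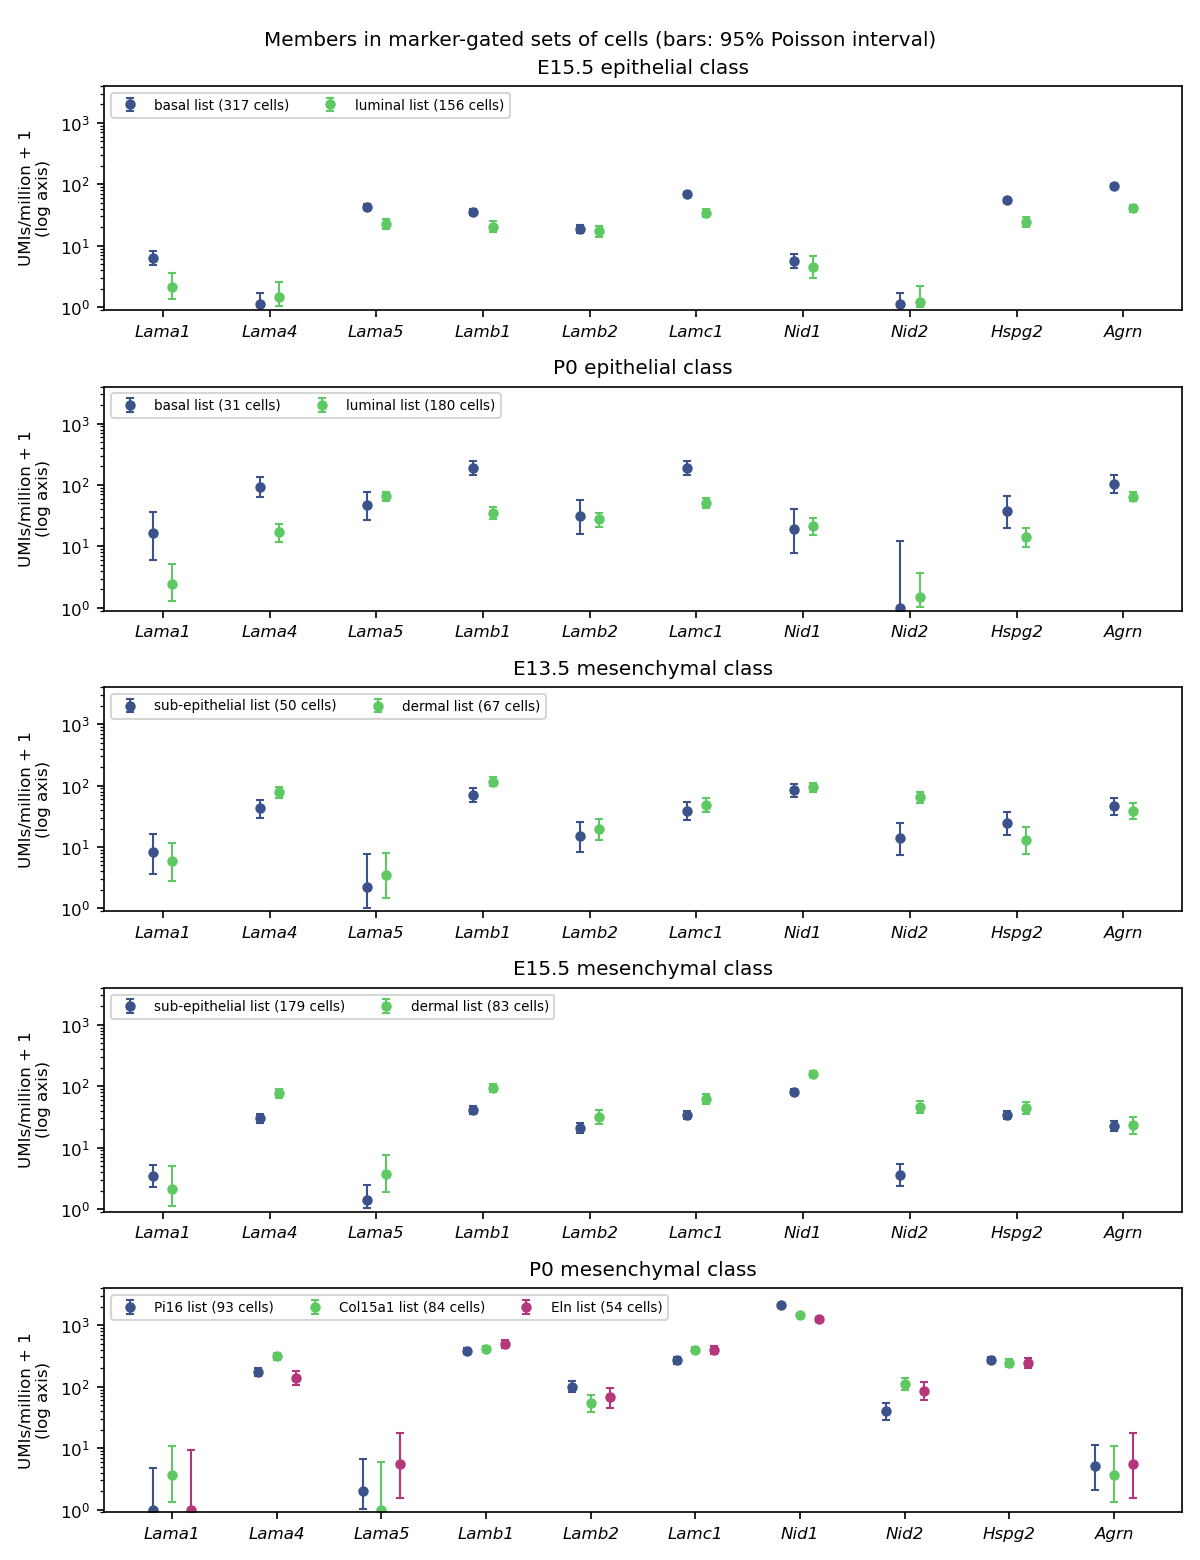
Levels (UMIs per 1000000 plus 1, log axis, exact 95% Poisson intervals) of the 10 genes in sets of cells gated by marker lists within a class at a stage. Lama4, Lamb1 and Lamc1 stood higher in basal than luminal cells at P0, and Nid2 higher in the dermal than in the sub-epithelial set of both embryonic stages.

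Other basement membrane genes give the setting. At E15.5 Lama3 was 24.6-fold higher (17.6 to 35.4) in the epithelium, where Lamb3 was also called, and Lama2 was called mesenchymal. Of 8 collagen IV, XV and XVIII genes, 3, 3, 3 and 2 were called epithelial and 0, 0, 1 and 3 mesenchymal from E13.5 to P0, out of 5, 5, 7 and 6 tested. Over all genes tested, 9.81%, 13.4%, 16.2% and 23.8% were called epithelial and 20.7%, 16.8%, 22.3% and 18.4% mesenchymal. Col4a1, a collagen IV chain, behaved like Lamc1, at a ratio of 0.921 (0.730 to 1.16), 1.34 (0.972 to 1.86) and 0.932 (0.839 to 1.04) in the embryo and 5.02-fold higher (4.48 to 5.64) in the mesenchyme at P0. At E15.5 the epithelial level of Col15a1 was 0.00708 times the mesenchymal one, and Col18a1 was 87.5 CPM in the epithelium against 5.65 CPM in the mesenchyme.

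Of 9 receptor genes, 5, 4, 5 and 4 were called epithelial and 1 mesenchymal at each stage, out of 8, 7, 9 and 9 tested. The counts of this paragraph stand beside the same shares over all genes. At E15.5 the laminin receptor chains Itga3 (37.4-fold, 12.6 to 183) and Itgb4 (15.4-fold, 9.77 to 25.8) and the collagen receptor chain Itga2 (14-fold, 7 to 32.9) were epithelial, and Itga1, another collagen receptor chain, was 0.0611 times its mesenchymal level (0.0373 to 0.0953). Of 10 genes of assembly and associated proteins, 2, 2, 3 and 0 were called epithelial and 4, 5, 7 and 6 mesenchymal, out of 8, 8, 10 and 7 tested. Among the mesenchymal ones at E15.5 were Frem1 (0.0216, 0.0129 to 0.0341) and Smoc1 (0.0701, 0.0349 to 0.129), as ratios of epithelial to mesenchymal level. The median log2 ratio of epithelial to mesenchymal level at E15.5 and at P0 was 0.39 and -0.46 for the collagens, 2.05 and 0.38 for the receptors and -2.63 and -2.24 for the assembly list, beside -0.10 and 0.30 over all genes.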

How the data were processed

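Single-cell suspensions were captured with the 10x Genomics 3' kit. The authors deposited UMI counts per gene and barcode, without normalization, made by Cell Ranger from alignments to the mm10 genome. The submitters' processing notes name version 6.0.0, as do the table headers except that of E15.5, which names 3.1.0 and lists other genes. The comparisons over all genes between stages therefore matched genes by Ensembl identifier. The 10 genes and the genes of the other lists were found by symbol at each stage. No cell labels of the authors were used.

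Cells were filtered at 5000 UMIs and 6% mitochondrial UMIs and classed by the larger marker sum. No cell was removed as a doublet beyond the authors' sort gates, and 1 to 13 kept cells a library had at least 10 UMIs of both marker sums. Counts were summed per class, and ratios, exact intervals and shares were computed in Python 3.11.15 with numpy 2.4.6, scipy 1.17.1 and pandas 2.3.3. The call rule was tried on simulated counts with Poisson error only, the error that the intervals assume. The simulation held no variation between cells, embryos or libraries, so it cannot show how the rule behaves under such variation. For shares after thinning, each cell was drawn to 5000 UMIs (seed 11). A class with 0 UMIs was set to 3 counts for a bound.

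The members, marker lists and gates were chosen with earlier results of these data known. Besides the 10 genes, the text names at most 10 genes of the other basement membrane lists, those with the largest ratio at E15.5 among those called, Lama2, Lama3 and Col4a1, and the 3 genes most like Lama1, Lama4 and Lama5. Lamb3 was named after its value was seen. A further gene is not reported here, nor are the counts of its list. Alternatives changed the UMI and mitochondrial limits, the class rule, the cells included, the scaling, the fold and the gate margin.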

Additional observations from a re-analysis of the deposited data

Results flagged for a closer look

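Hspg2 and Lamc1 are listed because the interval of the same contrast lay on opposite sides of 1 in different groups. For Hspg2 the ratio of epithelial to mesenchymal level was 2.3 at E13.5 and 1.18 at E15.5, and 0.0706 at P0. Its P0 over E13.5 ratio was 0.438 in the epithelial class and 14.3 in the mesenchymal class. For Lamc1 the ratio of epithelial to mesenchymal level was 1.36 at E15.5 and 0.209 at P0. With 1 library a stage, these differences were not tested over replicates, and stage, library and digestion cannot be told apart. For E15.5 the same holds for the software version.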

How the results depend on the processing

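The counts of genes called between classes and between E13.5 and P0, the alpha chain shares and selected gated ratios gave 284 values under the alternatives. The selected gated ratios were basal over luminal for Agrn at E15.5 and Lamb1 at P0, sub-epithelial over dermal for Nid2 at E13.5 and E15.5, and Pi16 over Col15a1 for Lama4 at P0. Of the 284 values, 273 stayed within 1.5 times the count or inside the reported interval. Every value did so with a UMI minimum of 3000, a mitochondrial maximum of 10%, the 5-fold class rule, no cells with other-type markers, per-cell means, 2-group size factors, no UMI minimum and a 1.5-fold limit. A further setting, matching by symbol, repeated the main computation. Its 28 values, included in the 284, could not differ and carry no information. Thinning to 5000 UMIs, which leaves few counts, moved 7: 1 gene was called in each direction at E14.5 and 1 was called higher at P0 in the epithelium, the epithelial Lama5 share was 19.3% at E15.5 and 48.6% at P0, the epithelial Lama3 share was 76.4% at E15.5 and the mesenchymal Lama2 share was 6.67% at E14.5. For the called Lama1 log2 ratio at E14.5 it left a lower bound of -0.54, set by 3 counts for a mesenchymal class at 0 UMIs, which gives no direction. With bud-marker cells alone, the Lama5 and Lama3 shares at E15.5 were 23.2% and 72.2%. The basal over luminal log2 ratio of Agrn at E15.5 was 1.65 with a margin of 3 times and 0.42 without cells with epidermis and periderm markers. The latter setting and the removal of cells with 1% hemoglobin or under the 5-fold rule in the gated sets were chosen after seeing the data. Of 934 values of single genes, the other gated ratios among them, 41 moved, besides that bound. Among the moved were the basal over luminal log2 ratios of Lamc1 and Hspg2 at E15.5. They were 1.31 and 1.98 with a margin of 3 times, and 0.56 and 0.64 without cells with epidermis and periderm markers. Size factors from the median ratio shifted the log2 ratios between E13.5 and P0 in the mesenchyme by 0.59 upwards and between the classes at P0 by 0.32 towards the mesenchyme, with no change in the number of genes called beyond 1.5 times.

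The number of cells limits the E14.5 library most (76), the UMIs per cell limit P0, and counts limit Lama1 everywhere, with 2 to 52 UMIs a class. A class at 0 UMIs allows a level of up to 3 counts, as for Lama4 in the E13.5 epithelium. No paired analysis was possible because each stage has 1 library.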
